A study of Mus musculus with 9 samples.

Results

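Membrane traffic genes of the liver were examined in fed and fasted mice: the Rab and Arf families of small GTPases with their partner proteins, the SNARE proteins of the VAMP, syntaxin and SNAP families, and the exocyst, COG and TRAPP tethering complexes. They were chosen by their gene symbols alone, with a mean of at least 1 TPM (a transcript level normalized for transcript length and library total) over 9 liver libraries. Of the 60 matching symbols, 57 reached this level, out of 4665 genes at that level and 5608 genes listed in all. The lowest gene that entered was Rab3il1, with a mean of 1.55 TPM, and the highest that did not was Rab11fip5, with 0.397 TPM. Rab7b and Rab39b were also left out, with means of 0.163 and 0.002 TPM. Each of the 57 genes also had a mean of at least 1 TPM within each diet group, so none entered through 1 group only.

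All mice were wild type animals of the C57BL/6 J strain. FED mice had standard diet ad libitum, IF (intermittent fasting) mice had food withheld for 24 h 2 times a week, and FMD mice received a fasting-mimicking diet, low in calories, for 3 days. Each group had 3 livers, with 1 library a mouse, and the labels number the FED and IF livers 1, 2 and 3 and the FMD livers 1, 2 and 4. Whole liver was sequenced, so a lower share of a cell type and less RNA per cell of that type cannot be told apart.

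Proteins and lipids move between the compartments of a cell in vesicles. A Rab or Arf GTPase in its GTP-bound form marks the membrane and recruits coats, motors and tethers, tethering complexes hold the vesicle at its target, and matching SNAREs on both membranes pull them together until they fuse. Hepatocytes depend on these steps to secrete plasma proteins and lipoproteins, to sort bile transporters to the canalicular membrane, and to deliver cargo to lysosomes, which autophagy uses in fasting.

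As a whole, the genes tested lay above FED, by a median of 0.24 in IF and 0.48 in FMD on the log2 scale. The listed genes held 26.3 to 29.3% of all TPM of a library in FED, 32.9 to 34.9% in IF and 34.9 to 43.0% in FMD. Each count is therefore also given after median-ratio scaling, in which each library is divided by its median ratio, over genes, to the geometric mean of the libraries. The scaling factors were 0.814 to 0.842 in FED, 0.961 to 1.03 in IF, and 1.43, 1.14 and 1.09 in FMD replicates 1, 2 and 4. FMD replicate 1 stood apart, as the highest of the 9 libraries at 65.8% of all genes tested. Markers of other liver cells also differed between libraries. The 5 of 13 stellate cell markers listed summed to 129 to 156 TPM in FED, 208 to 259 in IF and 177 to 341 in FMD. This sum is mostly Dcn and Ecm1, called higher in both diets before scaling and in neither after it, while Col1a1 had means of 1.15, 0.94 and 0.91 TPM and Pdgfrb of 1.67, 1.96 and 1.63 TPM in FED, IF and FMD. The 2 of 14 macrophage markers, Cd68 and Mpeg1, summed to 26.3 to 34.9, 13.4 to 16 and 10.8 to 82.1 TPM. Cd68 had means of 8.34 TPM in FED, 4.78 TPM in IF and 27.3 TPM in FMD (not called), while Mpeg1 fell from 22.9 TPM in FED to 9.86 and 11.8 TPM, a change of -1.11 (limma adjusted p = 0.0407) in IF and -1.02 (adjusted p = 0.0236) in FMD that was also called after scaling. The highest sum of both lists was in FMD replicate 1. Oit3, the 1 endothelial marker of 14, ranged over 6.58 to 9.28, 6.35 to 8.02 and 8.85 to 17.2 TPM, and Krt19, the 1 cholangiocyte marker of 10, did not exceed 4.07 TPM. Camp, the 1 of 10 neutrophil markers listed, was at 0, and no lymphocyte or erythroid marker was among the listed genes. Of the 20 hepatocyte markers 2 were listed, Ass1 and Hpx, which summed to 5540 TPM or more in each library. The part of these shifts in the results was not tested.

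The genes spanned a wide range of levels. Vamp8, a SNARE of endosomes and lysosomes, was the highest with a mean of 335 TPM. Arf1, which recruits the COPI coat at the Golgi, followed with 217 TPM, then Rab5if, named for binding Rab5, with 210 TPM and Arf4 with 144 TPM. These 4 genes held 48.3 to 55.3% of the summed level. Of the 14 Rab GTPases among the 57 genes, Rab43 was highest at 72.0 TPM and Rab23 lowest at 2.12 TPM. Family members outside the listed genes have no level here. Among tethers, the highest were Trappc3 of TRAPP at 49.1 TPM, Cog4 of COG at 32.1 TPM and Exoc6 of the exocyst at 8.97 TPM. Together the 57 genes had summed levels of 1290 to 1380 TPM (FED), 1640 to 1800 TPM (IF) and 1850 to 2630 TPM (FMD). The 3 groups did not overlap, and neither did they for the total of all listed genes. As a share of all listed TPM this was 0.467 to 0.490% in FED, 0.498 to 0.523% in IF and 0.531 to 0.611% in FMD.

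In IF livers 7 of the 57 genes were higher than in FED and none was lower. They were Rab30, Rab34, Rab43, Rab9, Rab5if, Rab11fip2 and Stx2, that is 12.3% of the genes, where 11.9% of all genes tested were called (10.3% higher and 1.59% lower). A call required a Benjamini-Hochberg adjusted p under 0.05 over all 4665 genes in limma and an absolute log2 fold change over 0.585. At an unadjusted p under 0.05, limma gave 21 higher (36.8%, with 35.9% of all genes tested) and 0 lower (3.34% of all). After scaling, Rab30, Rab34 and Stx2 remained, 5.26% of the genes against a background of 7.14% (3.69% higher and 3.45% lower), and none was called lower by limma. Here 10 were higher (17.5%, 14.9% of all) and 7 lower (12.3%, 14.5% of all) at an unadjusted p under 0.05. The median log2 fold change of the 57 genes was 0.22 against 0.24 for all genes tested, and -0.01 for the 57 genes after scaling, which sets the median of all genes close to 0. The FED and IF libraries did not overlap at 30 of the 57 genes (52.6%, background 60.6%), 29 of them higher in IF (background 53.8%) and 1, Stx7, lower (background 6.77%). After scaling they did not overlap at 32 genes (56.1%, background 46.2%), with 15 higher (background 23.2%) and 17 lower (background 23.0%).

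In FMD livers 19 of the 57 genes were higher than in FED and none was lower. This was 33.3% of them, against a background of 37.1% (35.5% higher and 1.59% lower). They were the 4 Rab GTPases raised in IF together with Rab6a and Rab33b, the Rab partners Rab5if, Rab3ip and Rab3gap2, Arf1, Arf4 and Arfgap3, Stx2, Stx12 and Vamp8, and the tether subunits Cog7, Exoc8, Trappc6b and Trappc13. At an unadjusted p under 0.05, limma gave 39 higher (68.4%, with 68.9% of all genes tested) and 0 lower (2.83% of all). After scaling 4 genes were called (7.02%, background 11.1%, of which 5.51% higher and 5.64% lower), namely Rab30, Rab34 and Arfgap3 higher and Snap47 lower. At an unadjusted p under 0.05, 11 were then higher and 11 lower (19.3% each, against 18.2% and 18.1% of all genes tested). The median log2 fold change was 0.48 for the 57 genes and for all genes tested, and -0.03 against 0.01 after scaling. The FED and FMD libraries did not overlap at 35 genes (61.4%, background 70.7%), each higher in FMD (background 68.0%; 2.62% of all genes were lower). After scaling the groups did not overlap at 22 genes (38.6%, background 36.7%), 11 higher (background 18.5%) and 11 lower (background 18.2%).

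Between the diets, 2 of the 57 genes were called, Rab30 and Trappc13, both higher in FMD. This was 3.51%, against a background of 5.14% (4.67% higher and 0.472% lower). At an unadjusted p under 0.05, limma gave 19 higher (33.3%, 32.7% of all) and 2 lower (3.51%, 2.59% of all) in FMD. After scaling Rab3a alone was called, lower in FMD (1.75%, background 2.23%, with 1.11% in each direction), with 8 higher (14.0%, 11.6% of all) and 10 lower (17.5%, 11.9% of all) at an unadjusted p under 0.05. IF and FMD libraries did not overlap at 23 genes (40.4%, background 36.7%), 20 higher in FMD (background 33.6%) and 3 lower (background 3.04%). After scaling they did not overlap at 18 genes (31.6%, background 26.3%), 8 higher (background 12.7%) and 10 lower (background 13.6%). The comparisons of IF and of FMD with FED share the FED libraries, so their values stand side by side below and are not independent. In IF vs FED as deposited the share called lay just above that of all genes tested, and in the other comparisons and after scaling it lay below.

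**Figure D1:**
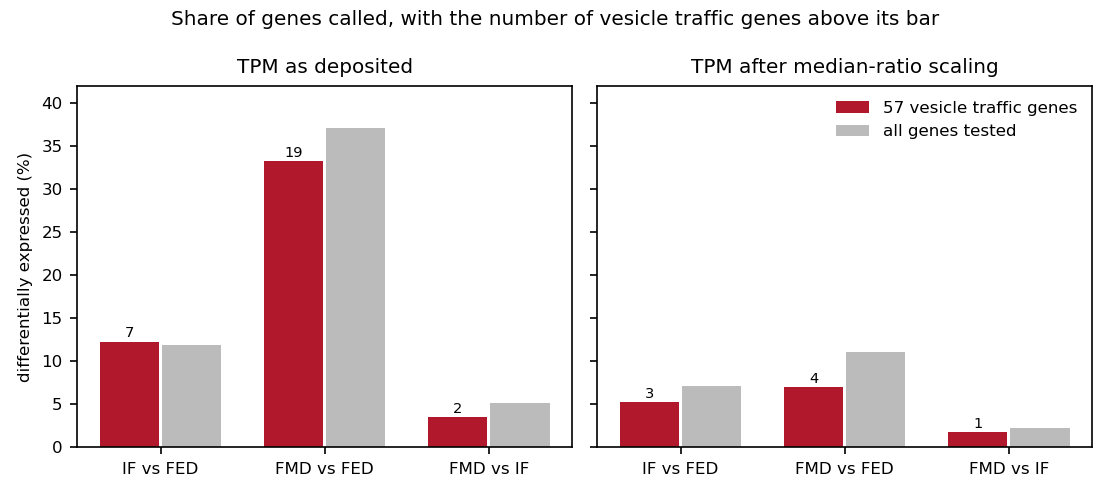
Share of genes called differentially expressed (%, y axis) in each comparison (x axis), for the 57 vesicle traffic genes (red, number called above the bar) and all 4665 genes tested (grey), with TPM as deposited on the left and after median-ratio scaling on the right. The red bars reach 12.3, 33.3 and 3.51% on the left and 5.26, 7.02 and 1.75% on the right.

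**Figure D2:**
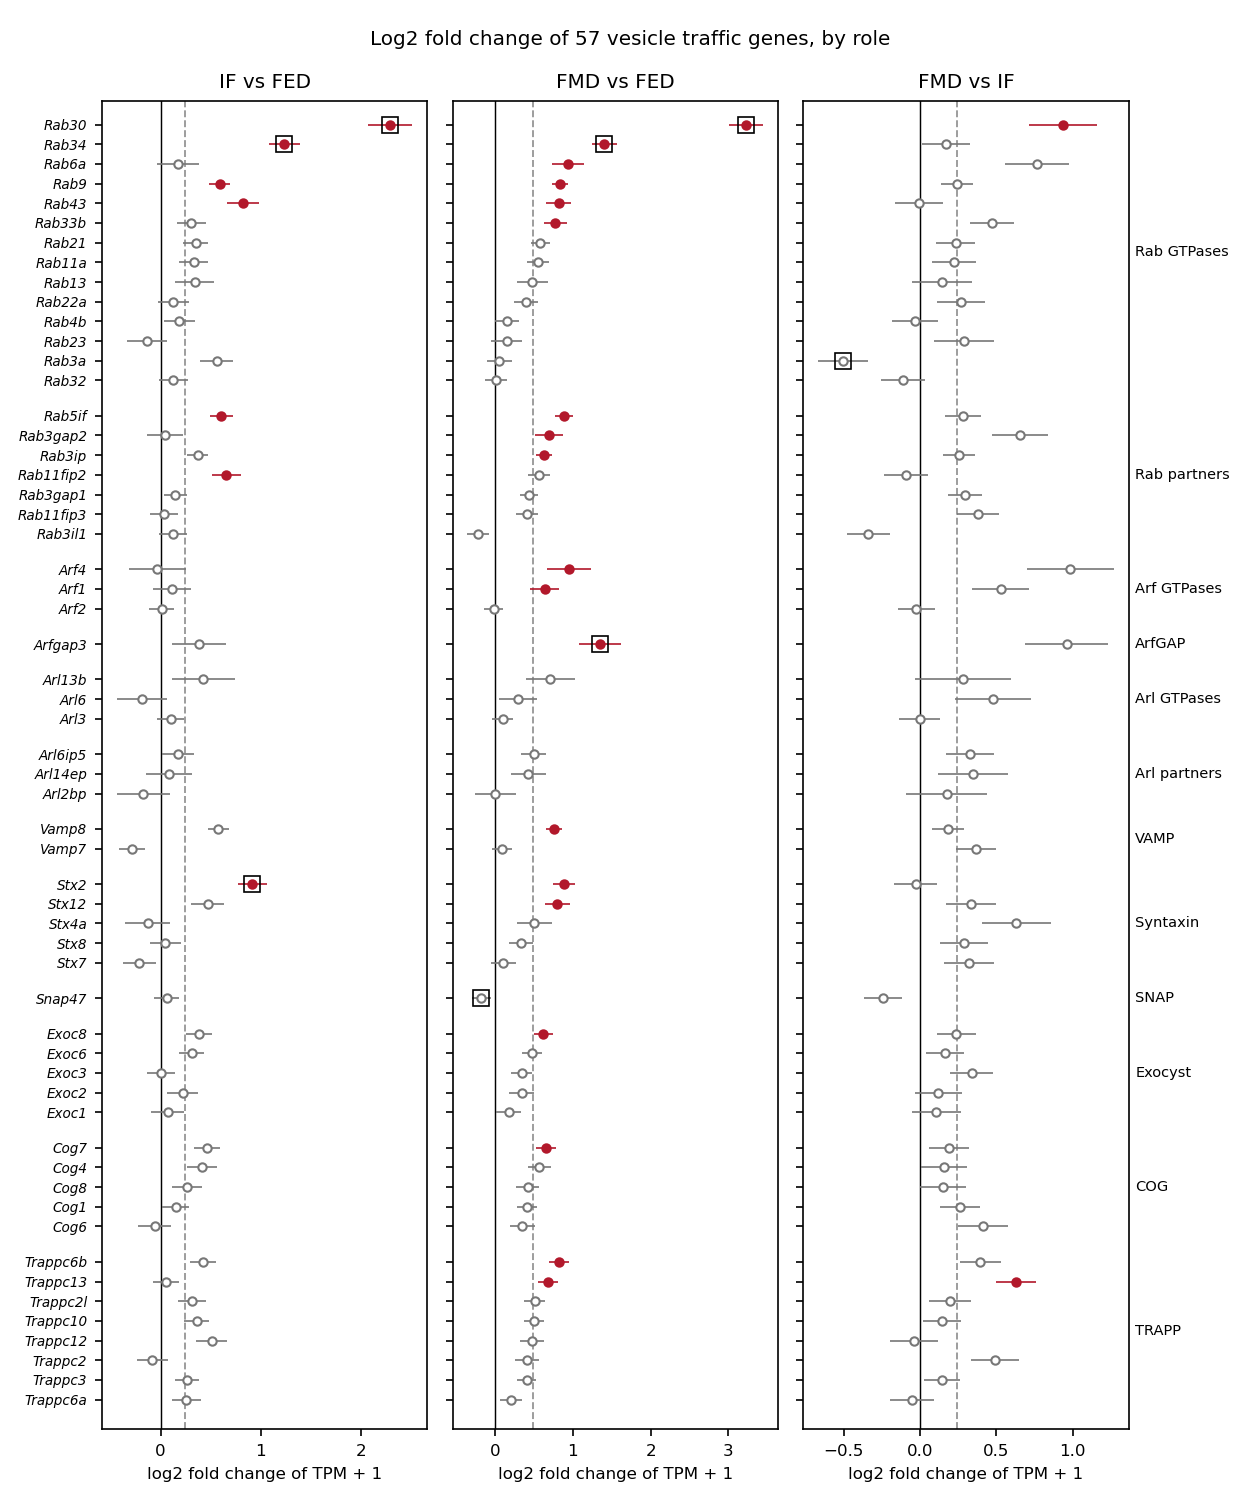
Log2 fold change of TPM + 1 (x axis) with its standard error from limma (bars) for each of the 57 genes (y axis), grouped by role, in the 3 comparisons. Filled red points were called and black squares mark genes called after scaling; the dashed line is the median of all genes tested, and Rab30 lies farthest to the right in IF vs FED and FMD vs FED.

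Rab30, a Rab of the Golgi, changed the most. Its level was 1.99, 4.01 and 1.95 TPM in FED replicates 1, 2 and 3, 17.6, 14.2 and 17.3 TPM in IF, and 36.8, 36.4 and 24.7 TPM in FMD replicates 1, 2 and 4. The 3 groups did not overlap, and the lowest FMD value was above the highest IF value. The rise over FED was 2.29 (SE 0.22, adjusted p = 1.6e-04) on the log2 scale in IF and 3.23 (SE 0.22, adjusted p = 9.6e-06) in FMD, by limma. These log2 changes equal 4.9 and 9.37 times on the scale of TPM + 1. Mean TPM itself was 6.18 times and 12.3 times that of FED. After scaling the changes were 2.09 (adjusted p = 6.1e-04) and 2.76 (adjusted p = 4.9e-05). FMD exceeded IF by 0.94 (adjusted p = 0.0361), which was no longer called after scaling at 0.67 (adjusted p = 0.104), nor without 1 of FED replicates 1 and 3, FMD replicates 1 and 2 or any IF replicate, at 0.84 to 0.99 (adjusted p = 0.0555 to 0.124).

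Rab34, a Rab of the Golgi that also takes part in building primary cilia, was at 3.33, 3.27 and 4.40 TPM in FED. It was at 11.1, 8.48 and 10.4 TPM in IF and at 13.4, 11.3 and 9.48 TPM in FMD. Every IF and FMD library exceeded every FED library, while IF and FMD overlapped. It rose by 1.23 (SE 0.16, adjusted p = 6.1e-04) in IF and by 1.41 (SE 0.16, adjusted p = 1.3e-04) in FMD, and by 1.01 (adjusted p = 0.00109) and 0.93 (adjusted p = 0.00102) after scaling. The 250 bases before 1 of its 2 starts in RefSeq (GRCm38.p6, chr11:78188177-78188426, plus strand) are shown, since it was called in both comparisons with FED on both scales. They hold none of the motifs searched for, which are given below with their frequency.
Rab34: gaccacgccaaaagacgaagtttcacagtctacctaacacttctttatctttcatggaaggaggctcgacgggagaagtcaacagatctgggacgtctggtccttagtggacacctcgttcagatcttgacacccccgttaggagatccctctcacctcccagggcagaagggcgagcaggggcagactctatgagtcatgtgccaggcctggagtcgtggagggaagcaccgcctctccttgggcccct

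Rab43 and Rab9 were called higher in both diets before scaling only. Rab43, which acts in Golgi traffic, was at 43.5, 47.8 and 49.8 TPM in FED, 90.3, 76.6 and 85.3 TPM in IF, and 64.4, 98.1 and 91.8 TPM in FMD. FMD replicate 1 was the lowest FMD library for Rab43, whereas it was the highest of all 9 for most of the 57 genes. The changes were 0.82 (SE 0.16, adjusted p = 0.00518) in IF and 0.82 (SE 0.16, adjusted p = 0.00196) in FMD. After scaling they were 0.55 (adjusted p = 0.117) and 0.27 (adjusted p = 0.396), and without FMD replicate 1 the scaled FMD change was 0.57 (adjusted p = 0.00347), just under the fold limit. Rab9, which returns receptors from late endosomes to the trans-Golgi network, was at 38.9, 41.7 and 40.0 TPM in FED, 59.7, 63.7 and 59.2 TPM in IF, and 72.4, 67.0 and 77.4 TPM in FMD. Its 3 groups did not overlap, with changes of 0.59 (SE 0.10, adjusted p = 0.00343) and 0.83 (SE 0.10, adjusted p = 2.5e-04). These were 0.31 (adjusted p = 0.108) and 0.29 (adjusted p = 0.109) after scaling. The IF change of Rab9 lay on or under the fold limit without FED replicate 1 (0.56), FED replicate 3 (0.585) or IF replicate 2 (0.55).

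Rab6a and Rab33b, both Golgi Rabs, were called in FMD vs FED and not in IF vs FED, and neither was called between FMD and IF. Rab6a, which guides retrograde and secretory vesicles, was at 22.2, 22.8 and 24.5 TPM in FED and 25.2, 28.6 and 24.8 TPM in IF, against 65.4, 44.1 and 31.7 TPM in FMD. The FMD libraries all lay above the others and differed from each other more than FED and IF differed. Its rise in FMD was 0.93 (SE 0.21, adjusted p = 0.00385), or 0.40 (adjusted p = 0.078) after scaling, and FMD vs IF gave 0.77 (adjusted p = 0.0505). Rab33b, which also binds the autophagy factor Atg16l1, rose by 0.77 (SE 0.15, adjusted p = 0.00181) in FMD from a FED mean of 2.64 ± 0.351 TPM (SD, n = 3) to 5.27 ± 1.11 TPM. After scaling this was 0.34 (adjusted p = 0.0509).

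Rab3a, a Rab of regulated exocytosis best known from synaptic vesicles, was highest in IF. It was at 2.83, 2.18 and 3.22 TPM in FED, 4.02, 5.90 and 3.73 TPM in IF, and 2.94, 2.62 and 3.02 TPM in FMD. Each IF library lay above each FED and each FMD library. FMD vs IF was -0.51 (SE 0.16, adjusted p = 0.0759) before scaling and -0.70 (adjusted p = 0.0445) after it, and after scaling the call was lost without any 1 library other than FMD replicate 4, at -0.78 to -0.54 (adjusted p = 0.056 to 0.152). IF vs FED was 0.56 (adjusted p = 0.0321), under the fold limit.

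None of the 7 other Rab GTPases was called in any comparison, on either scale. Of all genes tested, 11.9% were called in IF vs FED, 37.1% in FMD vs FED and 5.14% in FMD vs IF. After scaling these shares were 7.14%, 11.1% and 2.23%. Rab11a of recycling endosomes, Rab21 and Rab22a of early endosomes, and Rab4b and Rab13 of recycling and junction traffic had log2 fold changes of 0.13 to 0.35 in IF and 0.15 to 0.58 in FMD. Rab21 came closest, at 22.5, 22.0 and 24.4 TPM in FED and 40.1, 35.6 and 29.6 TPM in FMD, a change of 0.58 (adjusted p = 0.00336), just under the fold limit, or 0.05 after scaling. Rab32, which acts at lysosome-related organelles and mitochondria, was at 23.3, 21.0 and 21.1 TPM in FED and 26.6, 17.8 and 22.6 TPM in FMD. It gave 0.01 as deposited and -0.52 (adjusted p = 0.00977) after scaling. Rab23, a Rab of hedgehog signalling and cilia, was the lowest of the 14 Rab GTPases tested and gave -0.14 in IF and 0.15 in FMD.

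**Figure D3:**
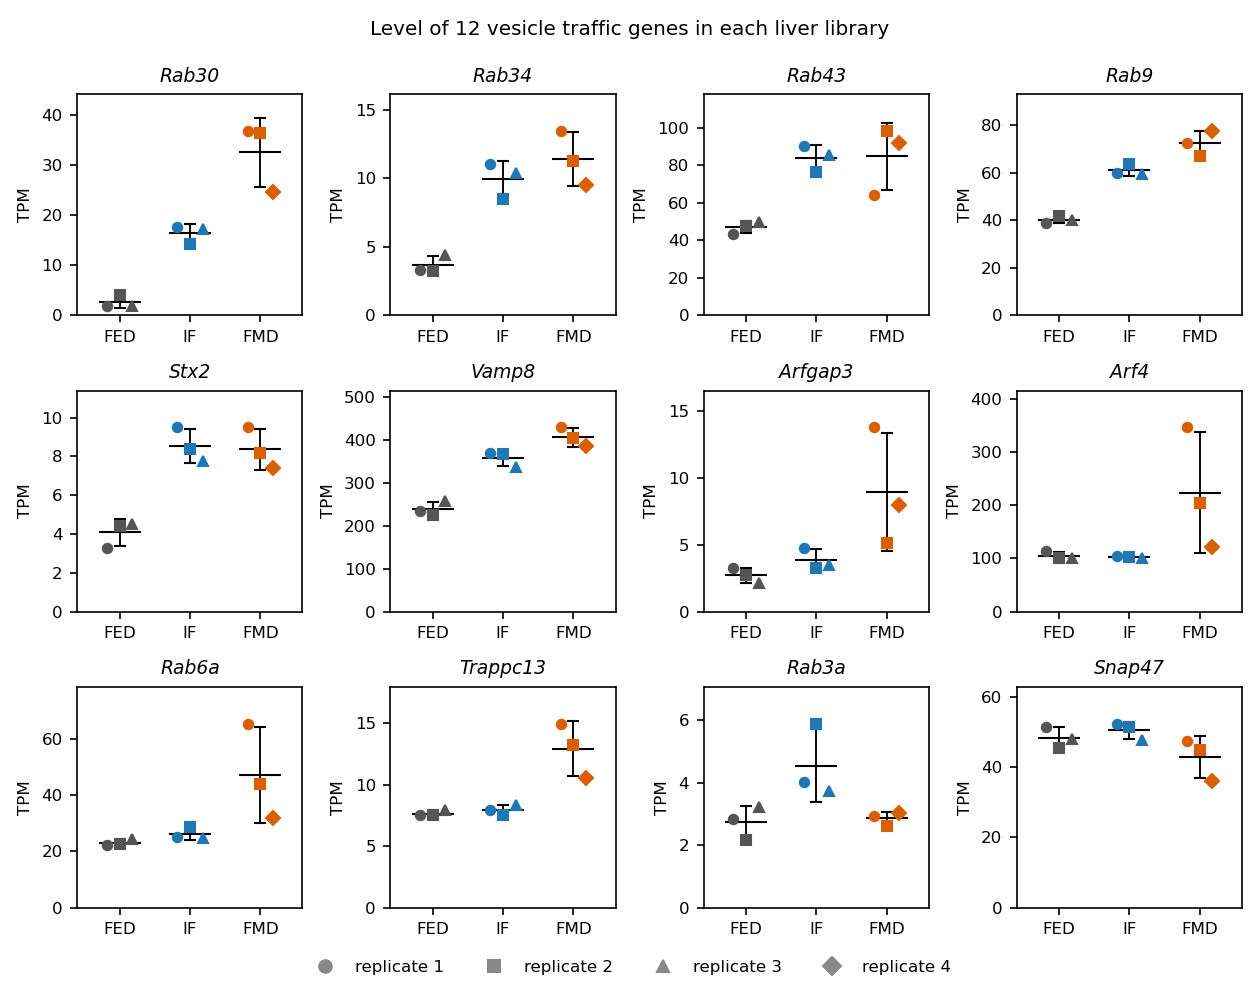
TPM as deposited (y axis, from 0) of 12 genes in each library of FED, IF and FMD livers (x axis), with a symbol for each replicate number and the mean ± SD (n = 3) in black. Rab30 reaches 36.8 TPM in FMD against at most 4.01 TPM in FED, and Arf4 ranges from 121 to 346 TPM among the 3 FMD libraries.

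Among the Rab partners, Rab5if was higher in both diets, at 149.7, 134 and 148 TPM in FED, 240.5, 218 and 201 TPM in IF, and 293, 254 and 254 TPM in FMD. The groups did not overlap. The changes were 0.61 (SE 0.12, adjusted p = 0.00543) and 0.89 (SE 0.12, adjusted p = 3.1e-04), and 0.33 (adjusted p = 0.0488) and 0.34 (adjusted p = 0.0338) after scaling, under the fold limit. Its IF change was under that limit without FED replicate 2 (0.56) or IF replicate 1 (0.54) as well. Rab11fip2, an effector that links Rab11 to myosin V, was at 0.76, 1.19 and 1.09 TPM in FED, 2.29, 2.46 and 1.76 TPM in IF, and 2.0, 2.25 and 1.66 TPM in FMD. It was called in IF at 0.65 (SE 0.14, adjusted p = 0.00968) but not in FMD at 0.56 (adjusted p = 0.00678), and FMD vs IF was -0.09 (adjusted p = 0.634). The IF call was lost without FED replicate 1 (0.56) or IF replicate 2 (adjusted p = 0.0503). Rab3ip, an exchange factor for Rab8, rose by 0.63 (adjusted p = 9.98e-04) in FMD, or 0.57, under the fold limit, without FMD replicate 2.

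The paired subunits of the Rab3 GTPase-activating complex did not pass together. Rab3gap2 was at 3.19, 3.60 and 3.12 TPM in FED and 8.42, 5.62 and 4.40 TPM in FMD, a rise of 0.70 (SE 0.18, adjusted p = 0.00791), whereas Rab3gap1 gave 0.44 (SE 0.11, adjusted p = 0.00719), under the fold limit. After scaling these were 0.24 (adjusted p = 0.195) and -0.07 (adjusted p = 0.675). The difference between the subunits was not tested. Rab3il1, a binding partner of Rab3a, was at 1.62, 1.64 and 1.51 TPM in FED, 1.84, 1.85 and 1.76 TPM in IF, and 1.33, 0.82 and 1.6 TPM in FMD. It lay lower in FMD than in IF in every library, with -0.34 (adjusted p = 0.117) before and -0.48 (adjusted p = 0.0713) after scaling. Rab11fip3 gave 0.03 in IF and 0.41 (adjusted p = 0.0248) in FMD.

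Arf1 and Arf4, GTPases of the Golgi and the early secretory pathway, were called in FMD, and their FMD libraries were far apart. Arf4 was at 114, 100.2 and 102 TPM in FED and 104, 103 and 101 TPM in IF, against 346, 203 and 121 TPM in FMD replicates 1, 2 and 4. FED and IF overlapped, and even the lowest FMD library was above them. Its rise was 0.95 (SE 0.29, adjusted p = 0.0145), or 0.40 (adjusted p = 0.231) after scaling and 0.14 (adjusted p = 0.604) after scaling without FMD replicate 1. Arf1 was at 187, 164 and 178 TPM in FED, 196, 196 and 179 TPM in IF, and 386, 250.4 and 214 TPM in FMD. It rose by 0.64 (SE 0.19, adjusted p = 0.013) before scaling and gave 0.09 (adjusted p = 0.659) after it. Arf2, close in sequence to Arf1, was at 5.25, 5.76 and 5.33 TPM in FED and 6.36, 4.63 and 5.24 TPM in FMD, with -0.02 before and -0.48 (adjusted p = 0.00536) after scaling. How reads shared by close paralogues such as these were assigned is not given in the sources used here.

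Arfgap3, which stimulates GTP hydrolysis by Arf1 on COPI vesicles, rose in FMD on both scales. It was at 3.27, 2.71 and 2.14 TPM in FED, 4.77, 3.24 and 3.51 TPM in IF, and 13.8, 5.13 and 7.99 TPM in FMD. The FMD libraries all exceeded the FED and IF libraries, and replicate 1 was far above the other FMD libraries. The change was 1.34 (SE 0.27, adjusted p = 0.00243) in FMD, or 0.89 (adjusted p = 0.0219) after scaling. Without FMD replicate 1 it was 1.01 (adjusted p = 0.00227), or 0.67 (adjusted p = 0.0453) after scaling. The scaled call was lost without FED replicate 2 (0.90, adjusted p = 0.0579) or FED replicate 3 (0.76, adjusted p = 0.0816). In IF it was 0.38 (adjusted p = 0.314). The 250 bases before its start (GRCm38.p6, chr15:83350248-83350497, minus strand) held none of the motifs searched for.
Arfgap3: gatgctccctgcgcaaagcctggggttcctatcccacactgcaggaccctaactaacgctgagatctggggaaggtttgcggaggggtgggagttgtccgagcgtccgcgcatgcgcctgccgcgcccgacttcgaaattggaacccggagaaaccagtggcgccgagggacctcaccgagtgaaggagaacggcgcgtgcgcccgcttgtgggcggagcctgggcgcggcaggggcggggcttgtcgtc

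None of the 6 Arl GTPases and Arl partners was called in any comparison of all libraries, on either scale. The background was 11.9% in IF vs FED, 37.1% in FMD vs FED and 5.14% in FMD vs IF, or 7.14%, 11.1% and 2.23% after scaling. Arl3 and Arl6, which serve transport into cilia, had FED means of 17.5 ± 0.316 and 2.17 ± 0.295 TPM (SD, n = 3). Arl3 was at 23.6, 16.9 and 16.6 TPM in FMD, and its log2 fold change was 0.10 as deposited and -0.43 (adjusted p = 0.00525) after scaling. Arl6 was at 4.85, 2.32 and 2.0 TPM in FMD, where replicate 1 alone was above the FED range. Arl13b, also a ciliary GTPase, varied widely, at 4.75, 6.74 and 1.87 TPM in FMD. Arl6ip5, a membrane protein of the endoplasmic reticulum, was at 35.6, 31.5 and 30.7 TPM in FED, 38.2, 38.9 and 33.3 TPM in IF, and 59.3, 44.1 and 37.7 TPM in FMD, with 0.49 (adjusted p = 0.0195) in FMD and -0.05 after scaling. Arl14ep, an effector of Arl14, was at 8.44, 4.10 and 3.74 TPM in FMD, again highest in replicate 1.

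Of the SNAREs, Stx2, a syntaxin of the plasma membrane, was called in IF on both scales. It was at 3.28, 4.43 and 4.54 TPM in FED, 9.50, 8.39 and 7.75 TPM in IF, and 9.50, 8.19 and 7.42 TPM in FMD. Both diets lay wholly above FED and on nearly the same values as each other. The rise was 0.92 (SE 0.14, adjusted p = 0.00183) in IF and 0.89 (SE 0.14, adjusted p = 8.2e-04) in FMD, or 0.69 (adjusted p = 0.0045) and 0.42 (adjusted p = 0.0267) after scaling. The scaled IF call was lost without FED replicate 1, at 0.57 (adjusted p = 0.0129), under the fold limit. FMD vs IF was -0.03 (adjusted p = 0.888). The 250 bases before 1 of its 2 starts in RefSeq (GRCm38.p6, chr5:129008573-129008822, minus strand) are shown as the 1 stretch printed that holds a motif, AGGTCA read on the other strand, in capitals.
Stx2: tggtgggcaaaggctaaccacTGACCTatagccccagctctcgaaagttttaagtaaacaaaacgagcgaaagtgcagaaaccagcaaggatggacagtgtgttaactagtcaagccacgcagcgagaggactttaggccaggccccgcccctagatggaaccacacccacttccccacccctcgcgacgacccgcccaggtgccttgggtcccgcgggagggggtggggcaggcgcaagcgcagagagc

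The other plasma membrane syntaxin, Stx4a, was at 22.2, 19.8 and 27.8 TPM in FED, 20.9, 21.9 and 20.3 TPM in IF, and 48.3, 32.8 and 22.8 TPM in FMD. FMD overlapped FED, and neither 0.50 (adjusted p = 0.069) in FMD nor -0.13 (adjusted p = 0.692) in IF was called. Of the endosomal syntaxins, Stx12 rose by 0.80 (SE 0.17, adjusted p = 0.00268) in FMD, from 10.1, 10.3 and 10.6 TPM in FED to 25.02, 15.0 and 17.5 TPM, and gave 0.29 (adjusted p = 0.0839) after scaling. Stx7 ran the other way in IF, at 9.65, 9.48 and 9.61 TPM against 11.6, 11.3 and 11.0 TPM in FED. Its groups did not overlap, with -0.21 (adjusted p = 0.349) before and -0.47 (adjusted p = 0.0169) after scaling, and in FMD it was at 16.4, 11.8 and 9.34 TPM. Stx8, which pairs with Stx7 in late endosomes, gave 0.05 in IF and 0.33 (adjusted p = 0.0797) in FMD.

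Vamp8, the most abundant of the 57 genes, was at 236, 226 and 258 TPM in FED, 369, 367 and 338 TPM in IF, and 430, 404 and 385 TPM in FMD. The 3 groups did not overlap. It rose by 0.76 (SE 0.11, adjusted p = 4.5e-04) in FMD, while 0.58 (SE 0.11, adjusted p = 0.00472) in IF lay just under the fold limit. After scaling these were 0.21 (adjusted p = 0.16) and 0.30 (adjusted p = 0.0739). Vamp7, the related SNARE of late endosomes and lysosomes, was at 17.5, 15.5 and 13.9 TPM in FED, 14.1, 12.4 and 11.5 TPM in IF, and 18.4, 15.2 and 16.4 TPM in FMD. In IF it gave -0.28 (adjusted p = 0.131), or -0.55 (adjusted p = 0.0117) after scaling, under the fold limit. The difference between Vamp7 and Vamp8 was not tested.

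Snap47, a SNAP-25 family SNARE found on internal membranes, was the 1 gene called lower in FMD vs FED, and only after scaling. It was at 51.5, 45.5 and 48.1 TPM in FED, 52.4, 51.4 and 47.8 TPM in IF, and 47.3, 45.0 and 36.1 TPM in FMD. As deposited FED and FMD overlapped, with a change of -0.18 (SE 0.12, adjusted p = 0.21). Scaled levels were 63.3, 55.6 and 57.2 in FED against 33.2, 39.5 and 33.1 in FMD, a change of -0.72 (SE 0.10, adjusted p = 0.00102), and -0.68 (adjusted p = 0.00161) without FMD replicate 1. FMD vs IF after scaling was -0.51 (adjusted p = 0.0256), under the fold limit. The 250 bases before its start (GRCm38.p6, chr11:59450035-59450284, minus strand) held no motif, and an AGGTCA match lay after the start.
Snap47: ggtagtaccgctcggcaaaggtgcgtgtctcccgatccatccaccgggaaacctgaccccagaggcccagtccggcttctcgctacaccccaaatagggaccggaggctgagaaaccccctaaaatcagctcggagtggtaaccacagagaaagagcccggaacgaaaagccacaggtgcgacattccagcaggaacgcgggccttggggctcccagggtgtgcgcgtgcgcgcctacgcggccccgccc

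No tether subunit was called in IF vs FED (background 11.9%), or in IF or FMD vs FED after scaling (background 7.14% and 11.1%). As deposited, 4 rose in FMD vs FED, where 35.5% of all genes tested were called higher. The subunits tested numbered 5 in the exocyst, 5 in COG and 8 in TRAPP, and the values below cover these only. Subunits outside the listed genes have no value here. In the exocyst, which holds secretory vesicles at the plasma membrane, Exoc8 rose by 0.62 (SE 0.13, adjusted p = 0.00253), from 1.05, 1.38 and 1.37 TPM in FED to 2.65, 2.66 and 2.14 TPM, and lay under the fold limit without FED replicate 1 (0.55), FMD replicate 1 (0.584) or FMD replicate 2 (0.58). The other 4 exocyst subunits tested ranged from 0.18 for Exoc1 to 0.48 for Exoc6, and the median of the 5 was 0.34, or -0.09 after scaling. In COG, which tethers vesicles within the Golgi, Cog7 rose by 0.65 (SE 0.13, adjusted p = 0.00223), from 7.15, 7.21 and 8.76 TPM to 14.5, 11.4 and 12.3 TPM. The median of the 5 COG subunits was 0.42, or -0.08 after scaling, with Cog4 at 0.57 (adjusted p = 0.00779) and Cog1 at 0.41 (adjusted p = 0.0187).

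In TRAPP, which tethers vesicles from the endoplasmic reticulum and activates Rab1, 2 of the 8 subunits tested rose in FMD. Among all genes tested 35.5% did. Trappc6b was at 23.0, 24.95 and 23.1 TPM in FED, 34.3, 31.6 and 30.6 TPM in IF, and 51.4, 40.9 and 36.6 TPM in FMD, so that its groups did not overlap. It changed by 0.82 (SE 0.13, adjusted p = 8.5e-04), or 0.28 (adjusted p = 0.0357) after scaling, whereas Trappc6a, its paralogue, gave 0.20 (adjusted p = 0.231) and -0.33 (adjusted p = 0.104). Trappc13 was at 7.51, 7.50 and 7.94 TPM in FED and 7.94, 7.56 and 8.35 TPM in IF, but 15.0, 13.3 and 10.6 TPM in FMD. FED and IF overlapped and FMD lay above both. It rose by 0.68 (SE 0.13, adjusted p = 0.00197) over FED and by 0.63 (SE 0.13, adjusted p = 0.0274) over IF, and gave 0.17 (adjusted p = 0.218) and 0.37 (adjusted p = 0.0571) after scaling. Over FED it was 0.57, under the fold limit, without FMD replicate 1. Over IF the call was lost without FED replicate 3, FMD replicate 1 or any IF replicate, at 0.52 to 0.66 (adjusted p = 0.0283, under the fold limit, to 0.11). Trappc3 and Trappc10, the highest and lowest of these 8, gave 0.40 (adjusted p = 0.0135) and 0.50 (adjusted p = 0.00678) in FMD. The TRAPP median was 0.49, or -0.03 after scaling.

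Of the 57 genes, 43 (75.4%) were highest in FMD replicate 1, against 65.8% of all genes tested. Relative to the FED mean, the median gene of the 57 was higher by 0.72 in FMD replicate 1, 0.46 in replicate 2 and 0.21 in replicate 4 on the log2 scale, against 0.69, 0.41 and 0.35 for all genes tested. In IF the 57 genes gave 0.28, 0.25 and 0.13. After scaling these medians were 0.02, 0.01 and -0.16 in FMD, and replicate 4 was then the lowest of the 9 libraries at 18 of the 57 genes (31.6%, against 11.7% of all genes tested). The median SD of the 57 genes within a group was 0.092 in FED, 0.107 in IF and 0.264 in FMD, or 0.096, 0.079 and 0.152 after scaling. For all genes tested it was 0.102, 0.108 and 0.25, or 0.104, 0.098 and 0.185 after scaling. Without FMD replicate 1, 13 genes were called in FMD vs FED (22.8%, background 25.0%), and Arf1, Arf4, Cog7, Exoc8, Rab3gap2 and Trappc13 were not among them. After scaling without it, 5 were called (8.77%, background 11.1%), with Arl2bp, which binds Arl2, lower at -0.67 (adjusted p = 0.0428) beside the 4 named above. For FMD vs IF, limma called none without it on either scale, against a background of 3.41% as deposited and 1.84% after scaling.

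**Figure D4:**
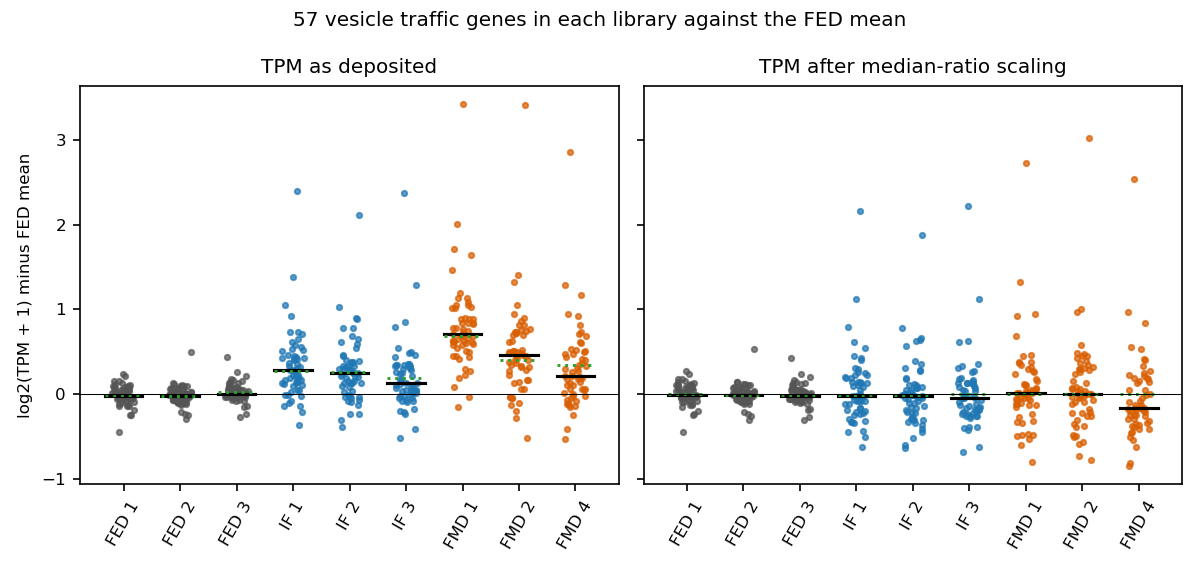
Each of the 57 genes as a point, with log2(TPM + 1) minus its FED mean (y axis) in each of the 9 libraries (x axis), as deposited on the left and after median-ratio scaling on the right. Black lines are the medians of the 57 genes and green dotted lines those of all genes tested; on the left the black line rises to 0.72 in FMD replicate 1, and on the right it lies between -0.16 and 0.02 in every library.

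Other genes of vesicle traffic, in 8 lists drawn up by function and not by symbol, had medians of 0.22 to 0.38 in IF vs FED and 0.38 to 0.76 in FMD vs FED. Of 24 Rab regulators, of which Rab3ip is also among the 57, 5 rose in IF and 10 in FMD, and none fell. Among all genes tested 10.3% were called higher in IF and 35.5% in FMD, which is the background for the count of each list. Tbc1d16, a Rab GTPase-activating protein, rose by 1.15 (adjusted p = 4.0e-04) in IF and 1.19 (adjusted p = 1.3e-04) in FMD, and also after scaling by 0.94 and 0.74, while Dennd4a rose by 0.67 and 0.90 and Rabggtb by 0.72 and 0.86. Of 14 Rab effectors 2 rose in each diet, led by Optn, an autophagy receptor that binds Rab8, at 0.94 in IF and 1.07 in FMD, with Inpp5b at 0.66 and 0.70. Of 18 Arf regulators and effectors 1 rose in IF (Arfgef2, an Arf exchange factor, at 0.64), and in FMD 6 rose (Arfgef2 at 0.77, Cyth2 at 0.93) and 1 fell, Asap2, an ArfGAP, at -0.63 (adjusted p = 0.00929).

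Of 12 other SNAREs and SNARE-handling proteins, 2 rose in IF and 6 in FMD. Sec22c, a SNARE-like protein of the endoplasmic reticulum, rose by 1.24 (adjusted p = 3.5e-04) and 1.17 (adjusted p = 1.7e-04), and by 1.04 and 0.74 after scaling. Use1 rose by 0.65 and 0.90, and Stxbp2 by 0.70 in FMD. In the COPII coat, which forms vesicles at the endoplasmic reticulum, 3 of 10 genes rose in IF and 8 of 10 in FMD. The COPII median was 0.32 in IF and 0.76 in FMD, or 0.06 and 0.23 after scaling, when Sec23a at 0.85 (adjusted p = 0.00357) and Sec24d at 0.68 (adjusted p = 0.0113) were still higher in FMD. Of 14 clathrin and adaptor genes none was called in IF and 6 rose in FMD, among them Cltb at 0.92 and Ap3d1 at 0.79, and none was called after scaling. Of 3 COPI genes 2 rose in FMD, with Copb1 at 0.96 and Copz2 at 0.61, and of 8 other tethers and golgins 2 did, Golga2 at 0.79 and Tgfbrap1 at 0.72, the latter also in IF at 0.69. Between FMD and IF as deposited, 1 COPI gene (Cope, 0.67) and 1 COPII gene (Sec24d, 0.95) were higher in FMD and no other gene of the 8 lists was called. After scaling, Sec24d was higher (0.68, adjusted p = 0.0414), and Sytl1, a Rab27 effector (-0.77, adjusted p = 0.0194), and Asap2 (-0.70, adjusted p = 0.0256) were lower in FMD than in IF.

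In both comparisons with FED the calls of these lists were fewer after scaling and went both ways. In IF, Tbc1d16, Optn (0.67) and Sec22c were higher, while Sec23b of COPII (-0.66, adjusted p = 0.0309) and Nbas, a tether subunit at the endoplasmic reticulum (-0.605, adjusted p = 0.00996), were lower. In FMD, Tbc1d16, Sec22c, Sec23a and Sec24d were higher, while Sytl1 (-0.72, adjusted p = 0.00365) and Asap2 (-1.03, adjusted p = 7.68e-04) were among the lower. The backgrounds after scaling were 3.69% higher and 3.45% lower in IF, and 5.51% higher and 5.64% lower in FMD.

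Promoters, here 250 bases before to 50 bases after each RefSeq start on GRCm38.p6, were matched for 54 of the 57 genes, with 79 starts in all. No entry was matched for Rab30, Vamp7 and Arl6ip5. The motif CACGTG, an E-box bound by factors of the MiT and USF families, was found in promoters of 7 genes (13.0%), against 12.9% of the 3816 genes tested that matched and 8.09% of all 27025 genes of the promoter table. The longer TCACGTGA, the form in promoters of many lysosomal genes, contains it and was found in 1 gene, Rab21 (1.85%, against 2.54% and 1.12%). AGGTCA, a half-site of nuclear receptors, was found on either strand in 11 genes (20.4%, against 14.4% and 18.1%), including Rab43, Rab22a, Rab32, Stx2, Stx8 and Snap47. Starts of 1 gene often lie close together and share sequence. A match describes the letters only.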

How the data were processed

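The authors made strand-specific mRNA libraries from the livers of 3 FED, 3 IF and 3 FMD mice, by oligo-dT enrichment, for DNBSEQ sequencing. The deposited values are TPM to 2 decimals, normalized by the authors, and were used as given. They cover 5608 genes and part of each library, so depth is unknown and no counting interval is given. The submitters' processing notes name mm39 and DESeq2, with no role. The aligner, quantification and annotation are not given in the sources used here.

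Of these genes, 4665 reached a mean of 1 TPM and were tested on the log2(TPM + 1) scale, in 1 limma fit (version 3.58.1, R 4.3.3) of the 9 libraries with trended empirical Bayes variances and Benjamini-Hochberg adjustment. Fold changes on this scale understate changes of low genes. The fit was tested on 10 simulated sets with 200 changed genes, the same spread in all groups and no common shift. In the data FMD had a wider spread and the genes as a whole lay above FED, so the simulation does not cover these features. The methods give 1 mouse a library, so p-values rest on the spread between mice, pooled over the 3 groups. Each comparison thus also carries the spread of the group that it leaves out. That spread was widest in FMD, with a median SD of 0.264 for the 57 genes against 0.092 in FED and 0.107 in IF. Genes and lists were chosen with earlier results of these data known. Genes named with values are those called before and after scaling, the 3 largest scaled rises and falls without overlap per comparison, the highest and lowest of each role, a list of members studied in liver, Trappc13 for its opposite directions, and up to 3 genes per pathway list. Rab33b, Rab3ip, Cog7, Trappc6b, Trappc6a, Rab4b, Rab13, Rab11fip3, Arl13b, Arl2bp, Exoc1, Asap2, Sec24d, Cope, Sytl1, Sec23b and Nbas were named after their values were seen. Alternatives covered pseudocount, filter, scaling, samples fitted, trend, replicate block, thresholds and each library left out. Protein sequences were not analysed here. Tables and figures used python 3.11.15, pandas 2.3.3, numpy 2.4.6 and matplotlib 3.10.9.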

Additional observations from a re-analysis of the deposited data

Results flagged for a closer look

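After scaling, Trappc13, a TRAPP subunit, was the 1 gene of the 57 for which every IF library lay on one side and every FMD library on the other side of every FED library. Its scaled levels were 9.23, 9.16 and 9.43 in FED, 7.73, 7.42 and 8.69 in IF, and 10.5, 11.6 and 9.69 in FMD. The difference of FMD and IF was 0.37 on the log2 scale (limma, adjusted p = 0.0571), so the difference itself missed the threshold. Group means of other genes also lay on opposite sides of FED after scaling, with overlap, such as Rab3a (0.35 in IF and -0.35 in FMD) and Arf4 (-0.31 and 0.40). As deposited, IF overlapped FED for Trappc13. The share of all genes tested with the diets on opposite sides of FED without overlap was not counted. Whether Trappc13 stands out from all genes tested in this respect is therefore not known. After scaling, the libraries of a single diet were clear of the FED range at 46.2% (IF) and 36.7% (FMD) of all genes tested. Groups of 3 were too small for an outlier test.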

How the results depend on the processing

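The share of all genes called under the same setting is given in brackets. For IF vs FED, the count of 7 (11.9%) was 6 to 9 under the 8 settings that changed neither scaling, the fold limit nor the libraries (7.8 to 15.5%). It was 3 after median-ratio scaling (7.14%), after quantile normalization (6.99%) and under a replicate block with scaling (8.0%), and 14 with no fold limit (23.8%). Leaving out 1 library gave 5 to 10 (8.9 to 13.0%), and 2 to 4 after scaling (4.61 to 8.34%). For FMD vs FED the count of 19 (37.1%) became 4 after median-ratio scaling (11.1%) and after quantile normalization (11.0%). It was 7 under the replicate block with scaling (13.4%) and 36 with no fold limit (67.2%). Leaving out 1 library gave 13 to 29, lowest without FMD replicate 1 (25.0%) and highest without FMD replicate 4 (46.6%), and 3 to 7 after scaling (8.75 to 13.9%). For FMD vs IF the count of 2 (5.14%) became 4 with a pseudocount of 0.1 (6.28%) or a mean of at least 5 TPM (6.78%). It was 1 with no filter (2.14%), after median-ratio scaling (2.23%) and after quantile normalization (2.1%). A fit of the 2 groups alone (0.514%) or an adjusted p under 0.01 (0.407%) gave 0. The replicate block gave 10 (16.5%), and 4 with scaling (6.77%). Leaving out 1 library gave 0 to 11 (0 without FED replicate 3, FMD replicate 1 or any 1 IF library, 1 without FED replicate 1, 11 without FMD replicate 4), where 0.386 to 17.6% of all genes were called. After scaling it gave 0 to 4 (0.343 to 7.4%). Scaling alone turned the direction of 21, 28 and 16 of the 57 genes for IF over FED, FMD over FED and FMD over IF, respectively (36.8%, 49.1% and 28.1%, against 31.3%, 40.5% and 33.9% of all genes), none of them called on either scale, for example Arl3 in FMD vs FED from 0.10 to -0.43. Among changes of direction that involved a call, Arf1 in FMD vs FED gave -0.042 and Arl2bp -0.67 after scaling without FMD replicate 1, and Rab32 gave -0.63 under the replicate block with scaling and -0.61 after scaling without FMD replicate 4. Apart from scaling, which by construction removes the common shift, and fewer libraries or another threshold, the cause was not tested.

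Replicate numbers were not treated as pairs in the main fit, and whether they mark pairs was not settled. Same-numbered residuals correlated at 0.177, 0.040 and 0.0035 between FED and IF, at 0.109 and 0.0055 between FED and FMD, and at 0.110 and 0.159 between IF and FMD. All of these were above 0, while differently numbered libraries correlated at -0.202 to 0.211. FED replicate 2 correlated best with IF replicate 3 (0.108) among the IF libraries. The replicate block gave 7, 28 and 10 genes in the 3 comparisons, when 12.7%, 46.2% and 16.5% of all genes were called. FMD replicate 4 has a block to itself there and adds nothing to the contrasts.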
